A study of Mus musculus with 18 samples.

Results

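Kupffer cells, macrophages that live in the liver sinusoids, were compared 6 h and 0 h into an acetaminophen time course. The comparison used 6 of the 18 RNA libraries of the study, 3 at 6 h and 3 at 0 h. Genes were joined on the Entrez gene identifier, and the 18003 genes present in both deposited time-course tables were the members. The 6 h libraries came from wild-type C57BL/6J mice labelled as acetaminophen treated. The 0 h libraries carry the same strain, genotype and treatment labels, but their count columns are named for PBS, so they are described here by time alone. Other libraries of the study were taken at 3 h and 12 h or after an antibody to CD41 or IgG. In all groups the liver was digested with collagenase, non-parenchymal cells were banded on an OptiPrep gradient and macrophages were selected by adherence, without a sort on surface markers. Nothing in the labels says which libraries came from separate animals, so a p-value here speaks of the spread among these libraries, which may be technical. The 6 h libraries stand in one deposited table and the 0 h libraries in another, and the tables were made separately. Time and table therefore cannot be told apart, and a gene was called only where the change was large and the groups did not overlap.

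Acetaminophen is harmful in overdose because hepatocyte cytochrome P450 enzymes, above all Cyp2e1, turn part of it into a reactive product that depletes glutathione and damages mitochondria. Kupffer cells lie beside the dying hepatocytes, clear debris through scavenger receptors and release cytokines. Adrenal glucocorticoids rise in acute stress, and macrophages answer them through the glucocorticoid receptor with a well-known set of target genes. Monocytes enter the injured liver from the blood, and an adherent macrophage fraction can hold them beside Kupffer cells.

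Total counts were 19024955 to 19638939 at 6 h and 19255878 to 19954179 at 0 h. Log2 CPM (counts scaled to a common library total and by edgeR's TMM factors) correlated across genes at 0.971 to 0.984 within 6 h, 0.974 to 0.990 within 0 h and 0.923 to 0.964 between the groups. The gene length implied by count and FPKM differed by over 10% between the tables in 263 of 11908 genes (2.21%). Kupffer cell markers were abundant in all 6 libraries. Clec4f, a lectin of Kupffer cells, had 3042, 3561 and 2883 CPM at 6 h, against 1406, 1321 and 2088 CPM at 0 h. Markers of sinusoidal endothelium, which bands with Kupffer cells on the gradient, were also present: the 18 tested summed to 9396 to 10524 CPM at 6 h and 8371 to 10674 CPM at 0 h. Stab2, their scavenger receptor, had 1288, 1198 and 1403 CPM at 6 h and 1079, 1252 and 1111 CPM at 0 h. In bulk RNA, fewer cells of a type and less RNA per cell cannot be told apart.

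At 6 h, 96 genes were higher and 381 lower than at 0 h among the 14067 tested (called higher 0.682%, called lower 2.71%, called in either direction 3.39%). A called gene had an adjusted p under 0.05 in edgeR's quasi-likelihood test (Benjamini-Hochberg over all genes tested), a fitted change of at least 4-fold and no overlap between the 3 libraries of each group. Genes called higher included the glucocorticoid targets Fkbp5 and Klf9 and the stress gene Ddit4. Hepatocyte transcripts were numerous among the genes called lower, with the major urinary proteins, serum amyloid A and cytochrome P450 families. At any fold, 2885 genes (20.5%) had an adjusted p under 0.05, of which 1386 were higher (9.85% of those tested) and 1499 lower (10.7%), and 3025 higher (21.5%) and 3123 lower (22.2%) did not overlap between groups. The median log2 fold change of all genes tested was -0.02.

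**Figure D1:**
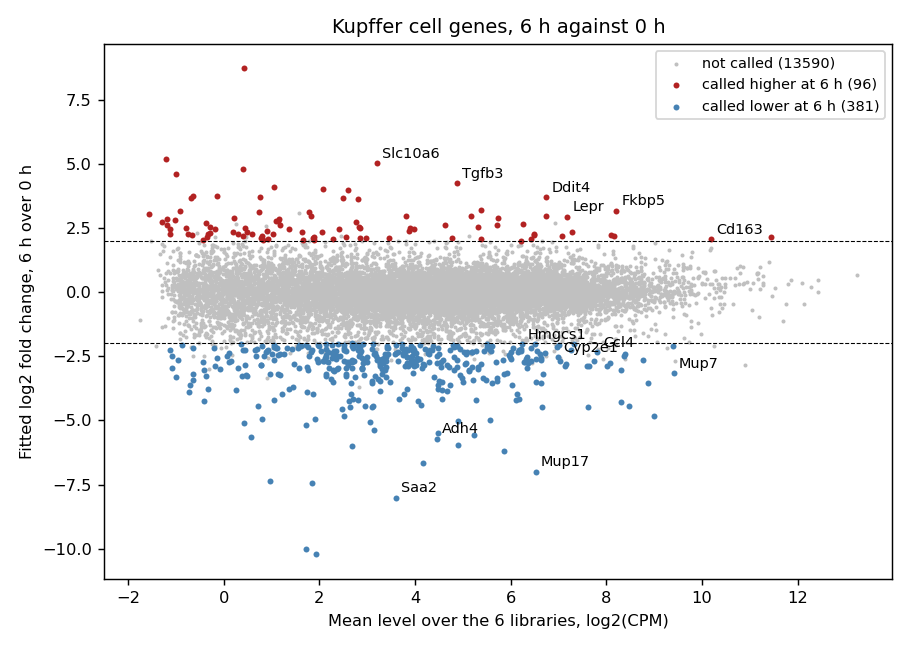
Fitted log2 fold change of 6 h over 0 h (y axis) against the mean level of each tested gene in log2 CPM (x axis). Dashed lines mark 4-fold. The 96 genes called higher and the 381 called lower are coloured, and the called genes lie across the whole range of levels.

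The number of calls rested on single libraries. Without 6 h replicate 2 no gene was called: the smallest adjusted p was 0.0554, with 4291 genes at an unadjusted p under 0.05, whereas DESeq2 and limma voom on all 6 libraries called 101 and 122 genes higher. Without 0 h replicate 2, 4 genes were called higher and 45 lower. Leaving out 6 h replicate 1 gave 41 higher and 348 lower, leaving out 6 h replicate 3 gave 176 and 445, and 0 h replicate 3 gave 97 and 244. The sizes of the changes moved less than the calls. Of the 477 called genes, 345 stayed at 4-fold or more and 477 at 2-fold or more in each of the 6 fits that left out a library. These genes had been selected for a large change without overlap in the same libraries, so the kept sizes give no support to the calls. Counts over gene lists moved as the calls did. Of the 21 lists with a called member among the 40 described here, all had none once 6 h replicate 2 was dropped. With 0 h replicate 2 dropped 16 of them had none, as had 16 with the replicate number as a block. Of the 19 lists that had no call, 8 gained at least 1 when 6 h replicate 3 was dropped, 3 when 0 h replicate 3 was and 2 when 6 h replicate 1 was.

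Replicate 3 of the 6 h group lay nearer to 0 h than the other two for most genes called higher. It was the 6 h library nearest to the 0 h mean in 78 of the 96. For genes called lower, 6 h replicate 1 was nearest in 211 of the 381. Genes were also counted in which all 6 h and 12 h libraries lay beyond all 0 h and 3 h libraries. This held for 9 of the 96 genes called higher (9.38%, against 7.93% of the 3025 genes whose groups did not overlap with 6 h higher). It held for 14 of the 381 called lower (3.67%, against 5.12% of the 3123 that did not overlap with 6 h lower). A gene had to be without overlap both to be called and to be counted here, so no share over all genes is set beside these. A lasting change with time and a difference between the tables would both split the libraries in this way. A difference between the tables would also be missed where the 3 h or 12 h libraries vary, so the count does not measure it.

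Among the annotated genes with a mean of at least 10 CPM at 6 h, Slc10a6, Tgfb3 and Cabyr had the largest fitted rises. Slc10a6 (chr5:103605711-103629403, GRCm38), which encodes a transporter of sulfated steroids, had 24.8, 21.8 and 7.01 CPM at 6 h, against 0.873, 0.403 and 0.357 CPM at 0 h. All 6 h libraries were far above all 0 h libraries, with replicate 3 the lowest at 6 h. Its log2 fold change was 5.02 (SE 0.61, edgeR adjusted p = 0.0128), and it lay between 4.71 and 5.58 with each library left out. Cabyr, a calcium-binding protein best known from sperm, had 14.4, 15.4 and 4.45 CPM at 6 h and 0.719, 0.755 and 0.714 CPM at 0 h, a log2 fold change of 3.96 (SE 0.52). Its groups were as clearly apart.

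Tgfb3, a ligand of the transforming growth factor beta family, had 54.7, 107 and 5.32 CPM at 6 h, against 2.77, 2.06 and 3.93 CPM at 0 h. The rise was in replicates 1 and 2, while replicate 3 was 1.35 times the highest 0 h library. Its log2 fold change was 4.25 (SE 0.99, edgeR adjusted p = 0.0299). Lepr, the leptin receptor, had 567, 150 and 54.5 CPM at 6 h and 35.8, 37.3 and 27.4 CPM at 0 h. Replicate 1 carried much of the change: the log2 fold change was 2.94 (SE 0.79) with all libraries and 1.61 without it. Slit1, a guidance ligand, had 33.0, 30.8 and 11.4 CPM at 6 h, against 2.41, 1.91 and 5.20 CPM at 0 h, a log2 fold change of 2.98 (SE 0.53).

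Fosl1, a subunit of the transcription factor AP-1, had 12.0, 15.7 and 11.4 CPM at 6 h and 2.06, 0.655 and 0.408 CPM at 0 h (log2 fold change 3.64, SE 0.53). It was the 1 called gene among 25 immediate early genes tested, whose median log2 fold change was 0.20. Kcnj16, an inwardly rectifying potassium channel subunit, had 66.3, 93.9 and 65.8 CPM at 6 h and 3.85, 4.18 and 16.4 CPM at 0 h (log2 fold change 3.21, SE 0.58). In both genes the 3 libraries at 6 h were close to each other, unlike in most of the genes that rose.

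Ddit4, an inhibitor of the growth kinase complex mTORC1 that stress and glucocorticoids induce, had 344, 213 and 34.9 CPM at 6 h, against 20.3, 14.7 and 11.1 CPM at 0 h. The groups did not overlap, but replicate 3 at 6 h was nearer to the 0 h libraries than to the other two. The log2 fold change was 3.68 (SE 0.77, edgeR adjusted p = 0.0240). Hif3a, a hypoxia-inducible factor subunit that can restrain its relatives, had 13.3, 14.4 and 3.53 CPM at 6 h and 1.23, 0.806 and 0.408 CPM at 0 h (log2 fold change 3.66, SE 0.64). Of 16 hypoxia targets outside glycolysis Ddit4 alone was called, and the median of the list was -0.18 in log2 fold change. Bmf, a cell death activator of the BCL2 family, had 103, 68.8 and 19.0 CPM at 6 h and 10.5, 6.09 and 7.80 CPM at 0 h (log2 fold change 2.96, SE 0.59).

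Glucocorticoid-induced genes had 2 of 14 tested members called higher, against 0.682% of all genes tested, and 0 lower, with a median log2 fold change of 0.54. Fkbp5 (chr17:28398753-28486149), a co-chaperone that dampens the glucocorticoid receptor and is one of its most responsive targets, had 593, 720 and 287 CPM at 6 h, against 53.5, 66.0 and 57.3 CPM at 0 h. Every 6 h library was at least 4.35 times every 0 h library. The group means were 533 ± 222 CPM at 6 h, against 58.9 ± 6.42 CPM at 0 h (SD, n = 3), and the log2 fold change was 3.18 (SE 0.34, edgeR adjusted p = 0.0128).

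Klf9, a zinc-finger factor induced by glucocorticoids, had 355, 327 and 105 CPM at 6 h and 40.1, 55.5 and 59.0 CPM at 0 h. Its log2 fold change was 2.35 (SE 0.45, edgeR adjusted p = 0.0192). Rasd1, a small GTPase named for its induction by dexamethasone and not on that list, had 168, 340 and 55.7 CPM at 6 h, against 20.0, 27.8 and 24.6 CPM at 0 h (log2 fold change 2.96, SE 0.60). Replicate 3 was again the lowest of the 6 h libraries in all 3 genes. It was the lowest 6 h library in 12 of the 14 list members. Not all members rose: 10 of the 14 had a log2 fold change above 0, and the lowest was -1.27. Per1 and Tsc22d3, named after their values were seen, are further classical targets that stayed under the 4-fold limit. Per1, a clock gene with a glucocorticoid response element, had a log2 fold change of 1.84 (SE 0.33), and Tsc22d3, which encodes the glucocorticoid-induced leucine zipper protein, one of 1.52 (SE 0.32). The counts of this list depended on the libraries: 4 members were called without 6 h replicate 3 or 0 h replicate 1, 1 without 6 h replicate 1 or 0 h replicate 2, and 0 without 6 h replicate 2.

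**Figure D2:**
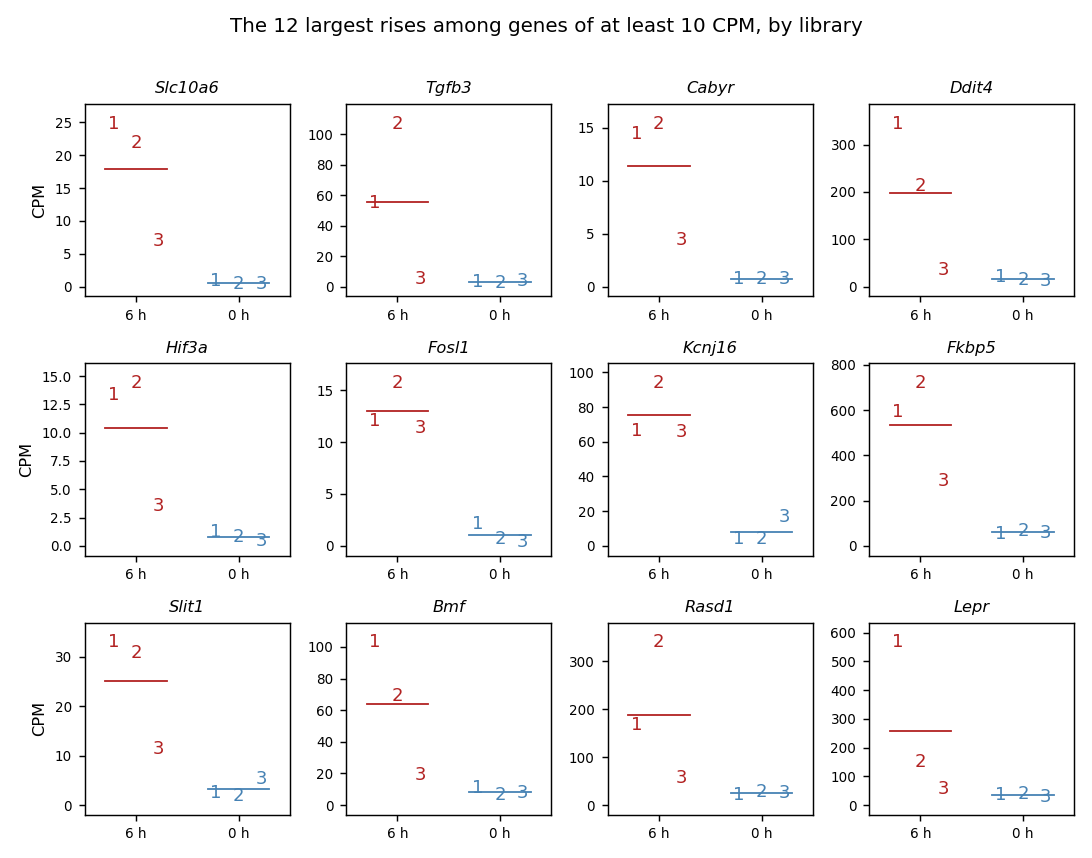
Levels in CPM (y axis, from 0) of the 12 genes with the largest rise among annotated genes with a mean of at least 10 CPM at 6 h, in the 6 h (red) and 0 h (blue) libraries. Digits are replicate numbers and bars are group means. Replicate 3 at 6 h is the lowest 6 h library in all 12 panels, for example at 287 CPM in Fkbp5 and 34.9 CPM in Ddit4.

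Kupffer cell identity genes had 2 of 22 tested members called higher, against 0.682% of all genes tested, and 0 lower, with a median log2 fold change of 0.60. The count was 1 when 6 h replicate 1 was left out. It was 0 with replicate 2 of either group left out, and 0 with the replicate number as a block. Cd163 (chr6:124304636-124330529), the scavenger receptor for haemoglobin bound to haptoglobin, had 2775, 1572 and 1324 CPM at 6 h, against 401, 386 and 565 CPM at 0 h. Its log2 fold change was 2.07 (SE 0.32, edgeR adjusted p = 0.0152), and it was 1.69 without 6 h replicate 1. Slc16a9, of the monocarboxylate transporter family, had 129, 197 and 69.4 CPM at 6 h and 14.2, 16.7 and 31.6 CPM at 0 h (log2 fold change 2.66, SE 0.46). The summed level of the 22 genes was 20050 to 22809 CPM at 6 h and 12933 to 17241 CPM at 0 h.

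Several defining Kupffer cell genes were not called. Vsig4, the complement receptor of the immunoglobulin family, had 1124, 1575 and 1088 CPM at 6 h and 381, 392 and 696 CPM at 0 h, and Timd4, a receptor for phosphatidylserine on dead cells, had 264, 425 and 317 CPM at 6 h and 205, 206 and 293 CPM at 0 h. The groups were apart in Vsig4, at under 4-fold, and overlapped in Timd4. Clec4f had a log2 fold change of 0.98 (SE 0.23). Marco, a scavenger receptor for bacteria and particles, had 635, 999 and 867 CPM at 6 h against 1997, 1445 and 1171 CPM at 0 h (log2 fold change -0.88, SE 0.26).

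Among the 21 phagocytic and scavenger receptors tested, Cd300lf, a receptor for phosphatidylserine and ceramide, was the 1 called higher and none was called lower (median log2 fold change 0.58). It had 475, 700 and 169 CPM at 6 h, against 96.9, 96.3 and 96 CPM at 0 h, a log2 fold change of 2.22 (SE 0.46). Of 13 metalloproteinases and inhibitors, Mmp19, a matrix metalloproteinase, was the 1 called: it had 218, 163 and 65.4 CPM at 6 h and 26.7, 36.3 and 31.2 CPM at 0 h (log2 fold change 2.24, SE 0.41). Of 14 p53 targets, Trp53inp1, which links p53 to autophagy, was the 1 called, with 181, 185 and 48.6 CPM at 6 h and 37.9, 33.6 and 27.7 CPM at 0 h (log2 fold change 2.06, SE 0.48). The 0 h libraries were close together in all 3 genes, and at 6 h replicate 3 was the lowest.

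Hepatocyte markers were lower at 6 h in 10 of 28 tested members, against 2.71% of all genes tested, with none called higher and a median log2 fold change of -1.89. Leaving out 6 h replicate 1 made the count 16, and leaving out 0 h replicate 2 made it 3. No marker was called without 6 h replicate 2. Not all members fell: 2 of the 28 had a log2 fold change above 0, and the highest was 1.82. At any fold, 1 was higher and 17 lower at an edgeR adjusted p under 0.05, against 9.85% and 10.7% of all genes tested. The size of the fall differed widely between the members that fell. Adh4 (chr3:138415456-138432683), an alcohol dehydrogenase, had 1.14, 0.321 and 0.972 CPM at 6 h, against 17.6, 52.5 and 59.1 CPM at 0 h. Rgn, the calcium-binding lactonase regucalcin, had 1.14, 0.481 and 1.28 CPM at 6 h and 21.5, 51.2 and 57.8 CPM at 0 h. Onecut1, a transcription factor of hepatocytes and bile duct cells, had 0.155, 0.695 and 0.614 CPM at 6 h and 4.83, 23.2 and 20.8 CPM at 0 h. In these 3 genes every 0 h library was at least 6.95 times every 6 h library. Their log2 fold changes were -5.71 (SE 0.62), -5.48 (SE 0.51) and -5.04 (SE 0.75), in that order.

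Cyp2e1 (chr7:140763819-140774990), the main enzyme that activates acetaminophen, had 43.8, 26.6 and 42.8 CPM at 6 h, against 176, 274 and 202 CPM at 0 h. The group means were 37.7 ± 9.62 CPM at 6 h, against 217 ± 50.9 CPM at 0 h (SD, n = 3). Its log2 fold change was -2.53 (SE 0.25, edgeR adjusted p = 0.0127) and lay between -2.65 and -2.29 with each library left out. Cyp2c29, another drug-metabolising cytochrome, had 1.24, 1.23 and 2.92 CPM at 6 h and 10.3, 26.8 and 24.8 CPM at 0 h (log2 fold change -3.51, SE 0.50). The other 5 called members were Apoa2, Ttr, Cyp3a11, Cyp1a2 and Fabp1, named here after their values were seen.

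The most widely used hepatocyte transcript moved far less. Alb, which encodes albumin, had 1315, 1994 and 1508 CPM at 6 h and 1937, 2552 and 3370 CPM at 0 h, and the groups overlapped (log2 fold change -0.71, SE 0.27, edgeR adjusted p = 0.0975). Ass1, of the urea cycle, had 483, 115 and 75.3 CPM at 6 h and 380, 1583 and 1071 CPM at 0 h. Here 6 h replicate 1 and 0 h replicate 1 overlapped (log2 fold change -2.17, SE 0.80, edgeR adjusted p = 0.0925), and the log2 fold change was -3.41 without 6 h replicate 1 (edgeR adjusted p = 0.0428). With other libraries left out the log2 fold change was -1.65 at the weakest, and the edgeR adjusted p reached 0.251. Hpd, of tyrosine breakdown, had 208, 47.3 and 31 CPM at 6 h and 277, 841 and 622 CPM at 0 h, with replicate 1 again the highest library at 6 h and the lowest at 0 h.

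The 28 hepatocyte markers summed to 6126, 5157 and 4048 CPM at 6 h, against 6987, 13558 and 12955 CPM at 0 h, and no member was at 0 in all libraries. Replicate 1 was the highest library at 6 h and the lowest at 0 h, so that these 2 libraries nearly met. Hepatocytes are removed by low-speed centrifugation in the isolation, and the part of hepatocyte RNA in the genes called lower was not tested. Few markers of other cell types were called. None of the stellate, T and NK, B, sinusoidal endothelial, platelet, cholangiocyte or monocyte markers was called, and 1 neutrophil, 1 erythroid and 2 dendritic cell markers were called lower.

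Gene families made in hepatocytes followed the same direction. Of 18 major urinary protein genes tested, 17 were called lower, against 2.71% of all genes tested, with a median log2 fold change of -3.55. Mup17 had 1.86, 1.23 and 1.18 CPM at 6 h, against 89.0, 327 and 131 CPM at 0 h, and Mup16 had 2.59, 0.588 and 1.48 CPM at 6 h, against 42.2, 216 and 86.7 CPM at 0 h. The fitted log2 fold changes were -6.99 (SE 0.62) and -6.20 (SE 0.80). In both genes all 6 h and 12 h libraries lay under all 0 h and 3 h libraries, so that they split by table. These pheromone-binding proteins come from near-identical gene copies, so the counts of a single member are uncertain. Mup9 was listed in the table of 0 h and 3 h alone, with a summed count of 5189.6 over its 6 libraries, and was not tested.

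Of the 4 serum amyloid A genes, a family of apolipoproteins, 3 were called lower, against 2.71% of all genes tested. Saa2 (chr7:46751833-46754313) had 0.0518, 0.0535 and 0.153 CPM at 6 h, against 10.7, 50.0 and 11.4 CPM at 0 h. Saa1, its near copy, had 0.207, 0.374 and 0.460 CPM at 6 h and 18.5, 71.8 and 17.2 CPM at 0 h, and Saa4 had 0.984, 1.92 and 1.74 CPM at 6 h and 34.8, 121 and 64.7 CPM at 0 h. Saa2 was near the lower limit of counting at 6 h, and at 0 h replicate 2 was the highest library in each gene. Saa1 was another gene whose 12 time-course libraries split by table. The log2 fold changes were -8.01 (SE 1.00) for Saa2, -6.66 (SE 0.80) for Saa1 and -5.56 (SE 0.55) for Saa4, and reads of Saa1 and Saa2 may be shared between the pair.

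Drug-metabolising families also held called genes in 1 direction, that of 381 of all 477 called genes. Over all genes tested, 2.71% were called lower and 0.682% higher. Of 45 cytochrome P450 genes of families 1 to 4, 14 were called lower and 0 higher (median log2 fold change -1.26). The same held for 3 of 15 UDP-glucuronosyltransferases, 4 of 6 sulfotransferases, 5 of 19 glutathione S-transferases and 4 of 12 aldo-keto reductases of family 1. Among the last, Akr1c6, a steroid dehydrogenase of liver, had 0.828, 1.18 and 3.27 CPM at 6 h, against 26.4, 68.8 and 78.8 CPM at 0 h (log2 fold change -5.03, SE 0.63). Gsta3, a glutathione S-transferase, was the 1 called gene among 19 NRF2 targets, with 11.2, 6.63 and 8.39 CPM at 6 h and 36.4, 122 and 131 CPM at 0 h (log2 fold change -3.46, SE 0.50). In both genes 0 h replicate 1 was the lowest 0 h library and still above all of 6 h.

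Further genes among the 12 largest falls of genes with a mean of at least 10 CPM at 0 h were Keg1 and Car3. Keg1, a gene related to glycine acyltransferases, had 0.518, 0.374 and 0.358 CPM at 6 h and 5.19, 18.6 and 28.2 CPM at 0 h. Car3, a carbonic anhydrase of muscle, fat and liver, had 1.04, 2.67 and 4.96 CPM at 6 h and 19.6, 36.3 and 222 CPM at 0 h. In Car3 a single 0 h library was far above the others, and the log2 fold change was -5.00 with it and -3.26 at the weakest when a library was left out. Pcx, pyruvate carboxylase, was the 1 called of 22 genes of the tricarboxylic acid cycle (log2 fold change -2.18, SE 0.53). Ppara, the fatty acid sensing receptor, was the 1 called of 19 genes of fatty acid oxidation (-2.0, SE 0.46). The gene models of Ppara implied by the 2 tables differed in length by a ratio of 1.16.

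**Figure D3:**
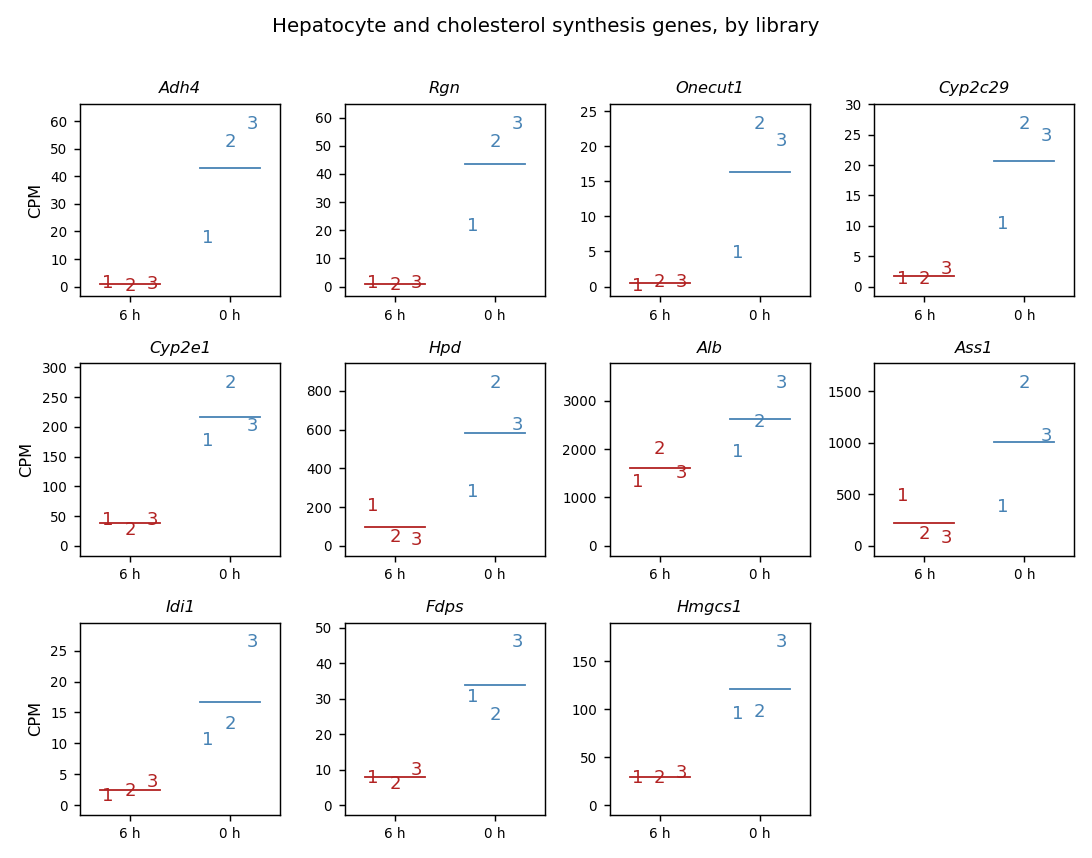
Levels in CPM (y axis, from 0) of 8 hepatocyte genes and 3 genes of cholesterol synthesis in the 6 h (red) and 0 h (blue) libraries. Digits are replicate numbers and bars are group means. Cyp2e1 and the cholesterol genes have separate groups, while Alb (1315 to 1994 CPM at 6 h, 1937 to 3370 CPM at 0 h) and Ass1 overlap.

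Genes of cholesterol synthesis and uptake were lower at 6 h in 4 of 14 tested members, against 2.71% of all genes tested, and higher in none, with a median log2 fold change of -1.17 and no member above 0. Leaving out 6 h replicate 1 or 0 h replicate 3 made the count 2, and none was called without 6 h replicate 2. SREBP2 drives this pathway when membrane sterol is low, by binding sterol response elements near the gene starts. Hmgcs1 (chr13:119690351-119708260), which makes hydroxymethylglutaryl-CoA, had 27.7, 28.0 and 33.3 CPM at 6 h, against 95.2, 97 and 170 CPM at 0 h. Idi1, the isomerase that interconverts the isoprenoid building blocks, had 1.45, 2.25 and 3.68 CPM at 6 h and 10.6, 13.2 and 26.4 CPM at 0 h. The 6 h libraries of each were under all 0 h libraries, among which replicate 3 was the highest. At 6 h the libraries were close together in Hmgcs1 and more widely spread in Idi1. Log2 fold changes were -2.03 (SE 0.25, edgeR adjusted p = 0.0128) for Hmgcs1 and -2.76 (SE 0.47) for Idi1.

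Fdps, farnesyl diphosphate synthase, had 7.56, 5.99 and 9.97 CPM at 6 h, against 30.6, 25.3 and 46.0 CPM at 0 h (log2 fold change -2.11, SE 0.29). The summed level of the 14 genes was 277, 318 and 361 CPM at 6 h and 791, 544 and 734 CPM at 0 h, with replicate 2 the lowest at 0 h. Fdps also had its lowest 0 h level in replicate 2, while Hmgcs1 and Idi1 had theirs in replicate 1, as the summed hepatocyte markers did. The fitted change of Hmgcs1 fell short of 4-fold without 0 h replicate 3, at -1.69 in log2 fold change.

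The promoter of Hmgcs1 is shown because it was the 1 of the 7 cholesterol genes with a RefSeq promoter sequence that held the core of a sterol response element, TCACNCCAC, where N is any base. Both strands were searched over the 250 bases before each gene start. The element, in capitals, begins 137 bases before the start. The run is the plus strand of chr13:119690101-119690350 in GRCm38.p6, from RefSeq.
Hmgcs1: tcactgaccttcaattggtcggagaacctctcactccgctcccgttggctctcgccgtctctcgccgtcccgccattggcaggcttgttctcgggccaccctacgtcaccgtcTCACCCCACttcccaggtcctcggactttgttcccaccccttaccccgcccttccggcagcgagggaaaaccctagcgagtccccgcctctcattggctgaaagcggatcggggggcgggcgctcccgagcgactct
The same letters were found in 331 of 27025 genes with a promoter sequence (1.22%), in 6 of 295 called lower (2.03%) and in 1 of 68 called higher (1.47%). A match in these letters is a description of the sequence and says nothing about binding in these cells.

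Genes of the endoplasmic reticulum stress and integrated stress response had 1 of 21 tested members called higher (Ddit4) and 2 lower. The shares over all genes tested were 0.682% and 2.71%. The median log2 fold change was -0.57, and 6 members were above 0. At any fold, 2 were higher and 9 lower at an edgeR adjusted p under 0.05, against 9.85% and 10.7% of all genes tested. Creld2 (chr15:88819646-88826681), a disulfide isomerase induced by endoplasmic reticulum stress, had 13.8, 15.6 and 19.9 CPM at 6 h, against 74.0, 94.4 and 71.4 CPM at 0 h. Sdf2l1, a partner of the chaperone BiP, had 11.7, 18.9 and 22.3 CPM at 6 h and 65.5, 84.3 and 68.0 CPM at 0 h. Libraries of each group were close together, and the log2 fold changes were -2.28 (SE 0.19, edgeR adjusted p = 0.0122) and -2.04 (SE 0.25). Among 14 heat shock chaperones, Hsph1, of the HSP110 family, was the 1 called, with 24.9, 23.6 and 30.9 CPM at 6 h and 66.8, 181 and 116 CPM at 0 h (log2 fold change -2.20, SE 0.35).

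Cytokines and chemokines gave 1 gene called higher and 2 lower among 33 tested, against 0.682% and 2.71% of all genes tested, with a median log2 fold change of -0.61. Leaving out 6 h replicate 3 gave 2 higher and 5 lower calls, and leaving out replicate 2 of either group gave 0 of each. Calls in the higher direction numbered 0 in the fits lacking 0 h replicate 3 or 6 h replicate 1, and 2 in the fit lacking 0 h replicate 1. Calls in the lower direction numbered 1 in the fit lacking 6 h replicate 1. Il12b, the p40 subunit of the T cell directing cytokines IL-12 and IL-23, had 0.518, 1.02 and 1.64 CPM at 6 h, against 13.5, 5.49 and 5.66 CPM at 0 h. Ccl4, which draws T cells and monocytes, had 29.7, 65.7 and 128 CPM at 6 h and 511, 334 and 283 CPM at 0 h. Ccl17, a chemokine for CCR4-bearing cells, had 2.12, 2.94 and 1.07 CPM at 6 h and 0.617, 0.252 and 0.408 CPM at 0 h. The groups were apart in each, and log2 fold changes were -2.95 (SE 0.53), -2.33 (SE 0.52) and 2.25 (SE 0.50), in that order.

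The classical inflammatory cytokines were not called, and their libraries at 6 h spread widely. Il1b had 391, 1256 and 1182 CPM at 6 h and 1092, 588 and 489 CPM at 0 h. Il6 had 17.3, 101 and 47.3 CPM at 6 h and 53.8, 24.2 and 34.0 CPM at 0 h. Tnf had 38.3, 64.4 and 213 CPM at 6 h and 435, 198 and 216 CPM at 0 h. The groups overlapped in all 3, with log2 fold changes of 0.38 (SE 0.48), 0.57 (SE 0.59) and -1.43 (SE 0.64).

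The regulatory cytokine Il10 had 23.6, 99.2 and 43.2 CPM at 6 h and 33.7, 13.1 and 32.0 CPM at 0 h (log2 fold change 1.07, SE 0.56). The neutrophil chemokine Cxcl1 had a log2 fold change of 0.34 (SE 0.55), and the monocyte chemokine Ccl2 one of -0.61 (SE 0.33). Replicate 2 was the highest 6 h library for Il6, Il10 and Cxcl1. None of the 20 genes of NF-kB feedback and activation was called, with a median log2 fold change of -0.48, but 4 were called lower without 6 h replicate 3 and 2 without 0 h replicate 3. None of 23 interferon-stimulated genes was called, with a median of -0.53, and 1 was called lower without replicate 3 of either group.

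Serpinb2, the macrophage inhibitor of plasminogen activators, was the 1 called of 11 genes of fibrinolysis and tissue factor. It had 0.880, 1.39 and 1.33 CPM at 6 h, against 8.17, 12.2 and 7.60 CPM at 0 h. Both groups were narrow (log2 fold change -2.95, SE 0.30, edgeR adjusted p = 0.0127). It too was among the genes whose 12 time-course libraries split by table.

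Monocyte markers were unevenly spread and gave no call among 18 tested, although their median log2 fold change was -1.55. Without 6 h replicate 3, 9 of the 18 were called lower, with a median of -2.66. With any other library left out 0 were called, and the median lay between -1.91 and -0.85, weakest without 0 h replicate 1. The 18 markers summed to 3906, 4452 and 7461 CPM at 6 h and to 14238, 8264 and 5381 CPM at 0 h. Ly6c2, the surface antigen of inflammatory monocytes, had 9.32, 18.9 and 76.6 CPM at 6 h and 235, 117 and 73.2 CPM at 0 h. Ccr2, their receptor for Ccl2, had 24.4, 28.8 and 226 CPM at 6 h and 433, 339 and 186 CPM at 0 h. Replicates 1 and 2 at 6 h were far under the 0 h libraries and replicate 3 was within their range. Replicate 3 was the highest 6 h library for 14 of the 18 markers. Without it the log2 fold change of Ly6c2 was -3.30, and with it -2.02 (SE 0.80, edgeR adjusted p = 0.108). With other libraries left out, that of Ly6c2 was -1.39 at the weakest.

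The part of this difference in the genes for which replicate 3 was nearest to 0 h was not tested. Dendritic cell markers had 2 of 10 members called lower, against 2.71% of all genes tested. Fscn1, an actin-bundling protein of mature dendritic cells, had 17.3, 18.1 and 56.8 CPM at 6 h, against 192, 192 and 108 CPM at 0 h (log2 fold change -2.41, SE 0.51). Cd209a, a lectin of monocyte-derived dendritic cells, had 3.88, 4.33 and 8.80 CPM at 6 h and 31.6, 25.4 and 16 CPM at 0 h (log2 fold change -2.10, SE 0.39). In both, 6 h replicate 3 was the highest at 6 h and 0 h replicate 3 the lowest at 0 h, as for the monocyte genes. Prtn3, a granule protease of neutrophil precursors, was the 1 called of 18 neutrophil markers (log2 fold change -2.19, SE 0.34), while the 18 summed to 998 to 1264 CPM at 6 h and 693 to 2180 CPM at 0 h. Alas2, the haem synthesis enzyme of red cell precursors, was the 1 called of 5 erythroid transcripts (-2.42, SE 0.47).

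Aldolase that platelets hand over in vesicles, and the metabolism of Kupffer cells, are the subject of the study's title. Aldoa (chr7:126795234-126800994), the aldolase of muscle, platelets and most other cells, had 560, 517 and 557 CPM at 6 h and 517, 475 and 441 CPM at 0 h. The group means were 545 ± 23.9 CPM at 6 h, against 477 ± 38.2 CPM at 0 h (SD, n = 3), with a log2 fold change of 0.19 (SE 0.13, edgeR adjusted p = 0.302). RNA levels of Aldoa say nothing of protein that cells take up. None of the 24 genes of glycolysis and glucose uptake was called, and their median log2 fold change was -0.09.

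Pkm, pyruvate kinase, had 1036, 816 and 885 CPM at 6 h and 804, 606 and 578 CPM at 0 h (log2 fold change 0.46, SE 0.18). Ldha, lactate dehydrogenase, had 281, 321 and 269 CPM at 6 h and 384, 452 and 458 CPM at 0 h (log2 fold change -0.57, SE 0.14). The glucose transporter Slc2a1 and hexokinase Hk2 had log2 fold changes of -0.19 (SE 0.30) and -0.10 (SE 0.17), and their groups overlapped. No gene was called among 7 of the pentose phosphate pathway (median 0.16 in log2 fold change) or 27 of oxidative phosphorylation (median -0.62). Of these 27, however, 0 had a log2 fold change above 0. At any fold, 14 were lower at an edgeR adjusted p under 0.05, against 10.7% of all genes tested. The 27 summed to 2164, 2086 and 2062 CPM at 6 h and to 2534, 3832 and 3531 CPM at 0 h. Replicate 1 was the highest library at 6 h and the lowest at 0 h, as for the summed hepatocyte markers. The part of hepatocyte RNA in these sums was not tested.

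Of the 14 platelet transcripts, 8 passed the filter on low counts and none was called. Without 6 h replicate 3, 1 was called higher, and none with any other library left out. At any fold, 5 of the 8 were higher and 0 lower at an edgeR adjusted p under 0.05, against 9.85% and 10.7% of all genes tested. The 8 summed to 300, 204 and 166 CPM at 6 h, against 93.0, 92.0 and 86.3 CPM at 0 h, so the groups did not overlap. Their median log2 fold change was 1.19. Itga2b, which encodes the CD41 subunit, had 7.51, 6.47 and 6.29 CPM at 6 h and 4.06, 2.82 and 3.37 CPM at 0 h (log2 fold change 0.98, SE 0.21, edgeR adjusted p = 0.0258), under the 4-fold limit. Gp1bb, Gp5, Gp6, Gp9 and Treml1 were among those too low to be tested.

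Hmox1, which breaks down haem, had 5170, 5446 and 2248 CPM at 6 h and 3458, 3094 and 2785 CPM at 0 h (log2 fold change 0.46, SE 0.35). Mt1, a metallothionein, had 1081, 1150 and 224 CPM at 6 h and 109, 343 and 200 CPM at 0 h, and Mt2 had 737, 876 and 149 CPM at 6 h and 67.2, 284 and 150 CPM at 0 h. Replicates 1 and 2 at 6 h were above all 0 h libraries in these genes, and replicate 3 was not. The log2 fold changes of 1.91 (SE 0.66) and 1.81 (SE 0.73) were not called. Slc30a10, a manganese exporter, was the 1 called of 10 metallothioneins and zinc transporters (-2.06, SE 0.44).

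Clock genes gave 0 higher and 2 lower calls among 18, against 0.682% and 2.71% of all genes tested. Among the 2 was Hlf, a clock output factor of liver (log2 fold change -2.38, SE 0.54). Hours of day are not in the labels used here. No member was called among 24 proliferation genes (median log2 fold change 0.43), 17 repair macrophage genes (-0.19), 14 complement genes (0.63), 12 genes of the liver X receptor and cholesterol efflux (0.26), 11 of MHC class II presentation (0.01), 12 of prostaglandin and leukotriene synthesis (0.04) and 8 of itaconate, nitric oxide and arginine metabolism (-1.30).

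**Figure D4:**
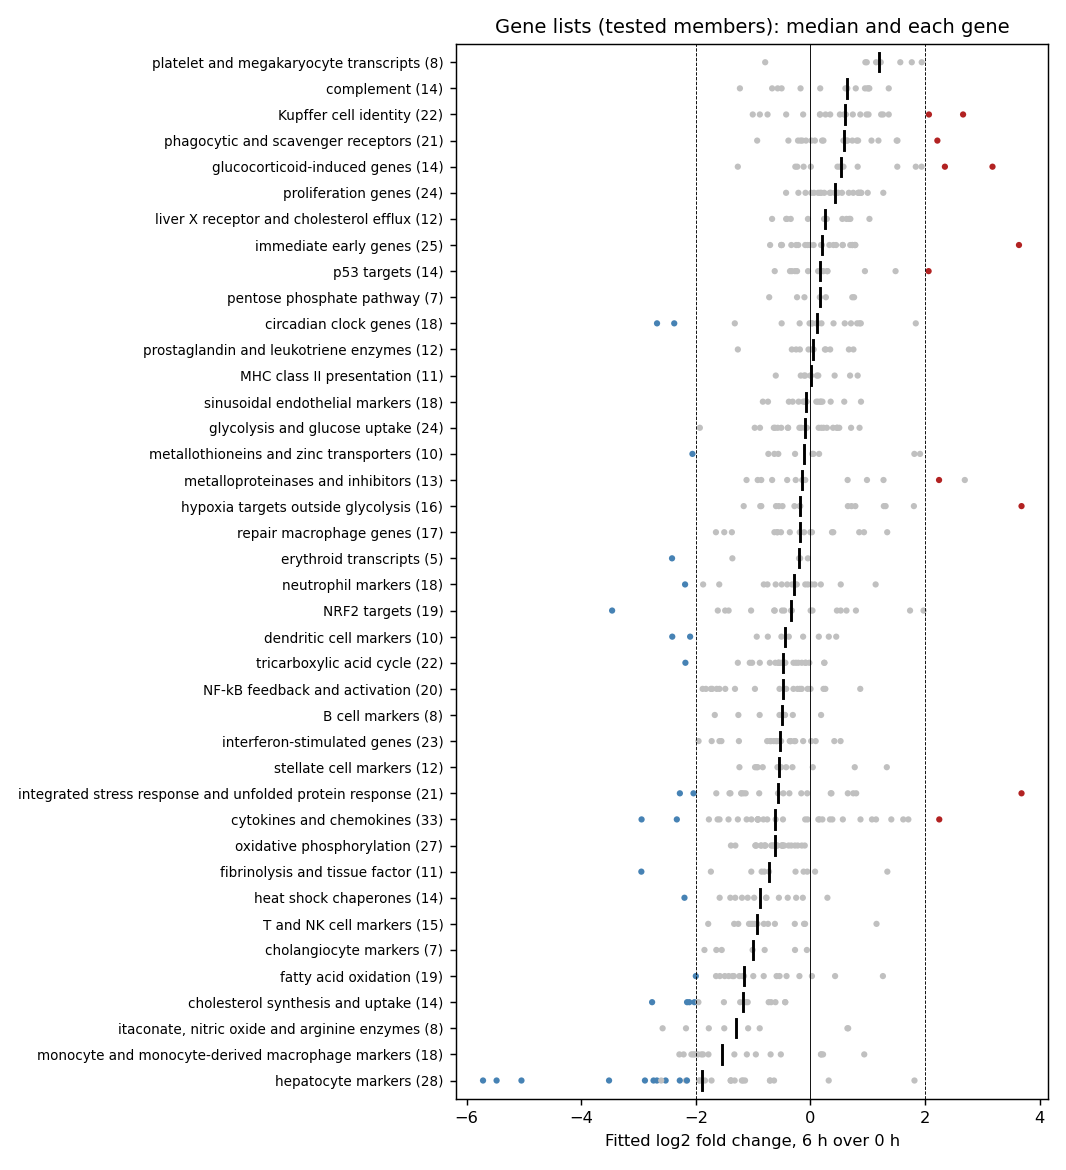
Fitted log2 fold change of 6 h over 0 h (x axis) for each tested member of the 40 gene lists (y axis, number tested in brackets, sorted by median). Black bars are list medians, red and blue points are called genes and dashed lines mark 4-fold. Hepatocyte markers have the lowest median (-1.89) and 10 called genes, and the platelet list the highest (1.19) with none called.

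The 3 h libraries stand in the same table as those of 0 h, and both comparisons share the 0 h libraries, so their values are set side by side only. Fkbp5 had a log2 fold change of 3.18 at 6 h and 2.77 at 3 h, each against 0 h. Slc10a6 had 5.02 at 6 h and 5.81 at 3 h, Cd163 2.07 and 1.74, and Klf9 2.35 and 2.85. Hmgcs1 had -2.03 at 6 h and -2.02 at 3 h, Cyp2e1 -2.53 and -2.16, Adh4 -5.71 and -5.68, and Creld2 -2.28 and -2.02.

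The next genes were chosen after their values were seen. Serpinb2 had a log2 fold change of -2.95 at 6 h and -0.54 at 3 h, Il12b -2.95 and 0.68, Ccl4 -2.33 and 0.47, and Saa2 -8.01 and -1.81. Il6 had 0.57 at 6 h and 2.43 at 3 h, and Il10 1.07 and 3.01. For these, a later time and another table cannot be told apart. The 12 h libraries, scaled by library total alone, differed among themselves: Fkbp5 had 685, 52.6 and 99.5 CPM and Slc10a6 29.5, 0.777 and 0.101 CPM in replicates 1, 2 and 3, so that 12 h replicate 1 was at the level of 6 h and the other two near 0 h.

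**Figure D5:**
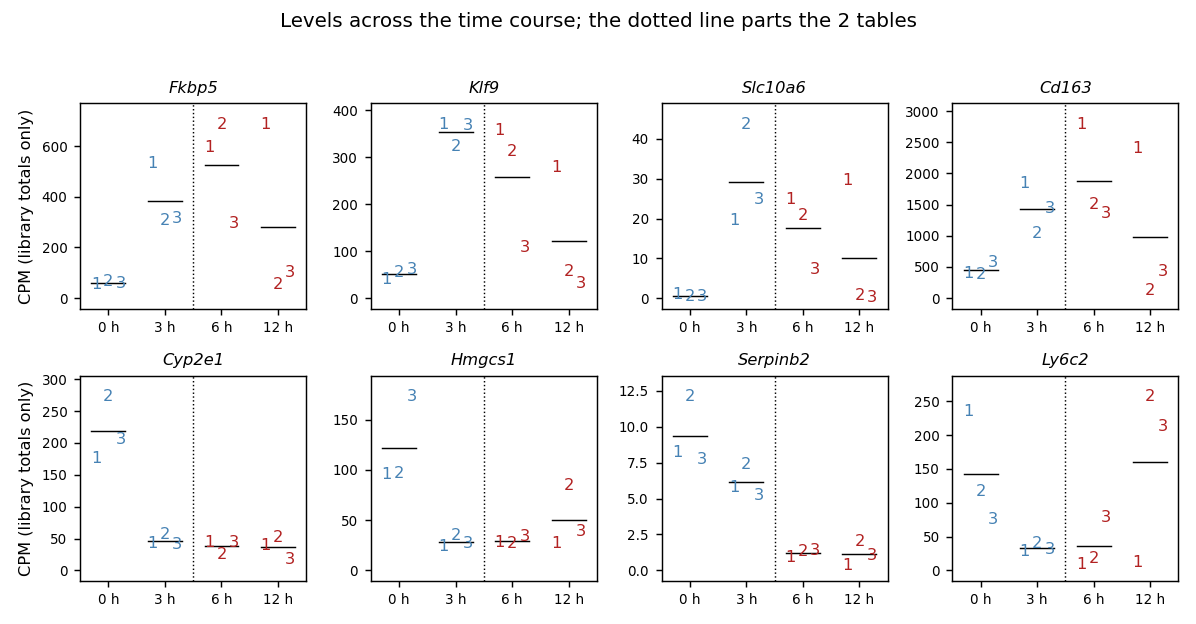
Levels of 8 genes in CPM by library total alone (y axis, from 0) at 0 h, 3 h, 6 h and 12 h (x axis). Digits are replicate numbers, bars are group means, blue marks the table of 0 h and 3 h and red the table of 6 h and 12 h. Fkbp5 and Klf9 lie above all 0 h libraries at 3 h and at 6 h, with replicate 3 the lowest 6 h library. Serpinb2 (0.880 to 1.39 CPM on the TMM scale at 6 h) steps down between the tables.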

How the data were processed

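The submitters' processing notes name HISAT2 and the GRCm38 build. What counted the reads, with which annotation and versions, is not given in the sources used here. Per the file headers, the authors deposited FPKM and expected counts (estimates, often not whole) for each gene, in one table for 0 h with 3 h and another for 6 h with 12 h. The 12 TPM columns were not used. Rows at 0 in every library numbered 570 in the table of 0 h and 3 h and 0 in the other. The join left out 850 genes listed for 0 h and 3 h alone and 370 listed for 6 h and 12 h alone. A gene with no counts at 6 h and 12 h could therefore be missing from the comparison.

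Counts were rounded, joined on gene identifier (18853 and 18373 genes, 18003 in both), filtered with filterByExpr (minimum count 10), scaled by TMM and tested two-sided by quasi-likelihood in edgeR 4.0.16 (under R 4.3.3), with 6 h over 0 h and Benjamini-Hochberg adjustment. A call needed an adjusted p under 0.05, a log2 fold change of at least 2 in size and groups without overlap. SE is the log2 fold change over the root of the F statistic. The common biological coefficient of variation was 0.232. An exact permutation test of 3 against 3 libraries cannot pass the threshold and was not used. Within each group the libraries differed by more than sampling noise (lowest chi-square per degree of freedom 30.7). On simulated counts of this comparison (13840 genes) the test called 99% of genes changed 8-fold, 100% of those changed 16-fold and 4 unchanged genes. Only genes with a 0 h mean of at least 5 CPM were changed, and no change near the 4-fold limit was simulated. Noise was drawn independently for each gene, without the deviations shared across a library seen in the real counts. These shares therefore do not measure how reliable the real calls are.

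The members, the lists and the panel were chosen with earlier results of these data known. Named are the 12 largest called changes in each direction with a higher group mean of at least 10 CPM, without predicted genes and pseudogenes, up to 4 called members per list, a panel of 22 genes, and marker genes beside a result. Some of these genes are not reported here. Positions and promoters are those of RefSeq for GRCm38.p6. Alternatives were other scalings, filters, tools (DESeq2 1.42.0, limma 3.58.1) and fold limits, FPKM on a log2 scale with a pseudocount of 1 or 0.1, the replicate number as a block, all 12 time-course libraries, and each library left out.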

Additional observations from a re-analysis of the deposited data

How the results depend on the processing

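Main counts were 96 genes higher and 381 lower. Genes called higher numbered 40 with a filter of at least 5 CPM, 17 with limma on log2(FPKM + 1), 40 on log2(FPKM + 0.1), 531 at 2-fold and 22 at 8-fold. Genes called lower numbered 249, 197, 309, 909 and 124 in the same order. With each library left out in turn the counts ranged from 0 to 176 higher and from 0 to 471 lower. Without 6 h replicate 2 none was called, although 424 of the 477 genes stayed at 4-fold or more. None of the called genes that an alternative tested changed direction under it (295 of the 477 were tested with the 5 CPM filter, 366 on FPKM, 468 without genes of unlike implied length and 477 otherwise). Called genes had been selected for a large change without overlap in these same libraries. A kept direction was therefore nearly fixed in advance and gives no support to the calls.

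The replicate number as a block left 5 genes higher and 46 lower. Libraries of the same number did not deviate together (correlations of -0.377, -0.147 and -0.0981 for numbers 1, 2 and 3), each 6 h library correlated best with a 0 h library of another number, and the labels do not say that a number marks a shared animal or day. DESeq2 size factors, library totals, DESeq2, limma voom, no filter, all 12 libraries and leaving out genes of unlike implied length gave 67 to 127 genes higher and 363 to 488 lower. Of the panel genes not called, 4 changed direction in log2 fold change with a library left out: Slc2a1 ranged from -0.42 to 0.22 (0 h replicate 1 left out), Hk2 from -0.15 to 0.06 (6 h replicate 1 left out; 0.00 without 0 h replicate 3), Il6 from -0.18 (6 h replicate 2 left out) to 0.99 and Cxcl1 from -0.17 (6 h replicate 2 left out) to 0.78. The cause was not tested. Genes near 0.05 CPM rest on about 1 count per library, and intervals from counts would cover counting error only.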

Other observations

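Liver programmes outside the lists used above were described with 5 lists drawn up after the values had been seen, so their counts are descriptions. Over all genes tested, 2.71% were called lower and 0.682% higher. Of 17 hepatocyte transcription factors, 11 were called lower and 0 higher (median log2 fold change -2.17), among them Foxa1, Foxa2, Foxa3 and Nr1h4. Nr1h4, the bile acid receptor FXR, had 3.99, 2.14 and 4.04 CPM at 6 h, against 15.6, 60.2 and 48.5 CPM at 0 h. Of 15 genes of bile acid synthesis and transport, 7 were called lower (median -1.94). Cyp7a1, the rate-limiting enzyme of bile acid synthesis, had 0.104, 0.214 and 0.972 CPM at 6 h and 3.13, 8.01 and 9.38 CPM at 0 h. The 6 h libraries were under all 0 h libraries in both genes.

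Of 22 genes of the urea cycle and amino acid breakdown, 10 were called lower (median log2 fold change -2.23). Otc, which makes citrulline in the urea cycle, had 23.5, 5.77 and 5.11 CPM at 6 h, against 34.5, 142 and 139 CPM at 0 h. Replicate 1 was the highest library at 6 h and the lowest at 0 h. Of 16 clotting factors and inhibitors 5 were called lower, and of 13 genes of glucose production and glycogen 6. Hamp, the iron hormone hepcidin, had 11.2, 5.56 and 6.19 CPM at 6 h and 33.8, 151 and 85.5 CPM at 0 h.

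A lipase, a ubiquitin ligase and a lipase inhibitor, also named after their values were seen, were called higher at 6 h. Pnpla2, the triglyceride lipase ATGL, had 645, 541 and 217 CPM at 6 h, against 97.1, 119 and 96.3 CPM at 0 h (log2 fold change 2.17, SE 0.38). Fbxo32, the ubiquitin ligase atrogin-1, had 86.4, 172 and 24.1 CPM at 6 h and 11, 16.1 and 10.9 CPM at 0 h (2.89, SE 0.65). Angptl4, a secreted inhibitor of lipoprotein lipase, had 14.4, 7.91 and 16.2 CPM at 6 h and 3.03, 2.72 and 3.16 CPM at 0 h (2.11, SE 0.30), and its log2 fold change at 3 h against 0 h was 0.53. All 6 h and 12 h libraries of Angptl4 lay above all 0 h and 3 h libraries.

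Keratins of skin and hair separated libraries across times. Krt5 had 0 CPM in all 3 libraries at 6 h, against 4.01, 9.32 and 9.69 CPM at 0 h. Krt14 had 0.0518, 0 and 0.0511 CPM at 6 h and 4.26, 7.70 and 9.59 CPM at 0 h. By library total alone, Krt5 had 4.24, 9.66 and 0 CPM at 3 h and 0.155, 0 and 0 CPM at 12 h, so that 3 h replicate 3 was like the later libraries. Krt17 and Krt75 had the same arrangement, and Krt6a, Krt16 and Krt6b were listed in the table of 0 h and 3 h alone. Krt5, Krt14, Krt17 and Krt75 count among the 381 genes called lower.

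Dlk1, a secreted relative of Notch ligands, followed the tables. It had 0.880, 1.07 and 0.972 CPM at 6 h, against 0, 0.101 and 0 CPM at 0 h, and by library total alone 0.672, 1.6 and 0.759 CPM at 12 h and 0 CPM in all 3 h libraries. It was called higher, at a level of about 1 CPM, and time and table cannot be told apart for it.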
